A study of Mus musculus with 239 samples.

Results

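The 50 genes described here encode proteins of the early secretory pathway and of the unfolded protein response. They were chosen by name as a set of genes for 7 steps, with earlier results of these data known. Each of the 50 names was found among the 18850 genes of the deposited expression table. The steps were the sensors and transcription factors of the unfolded protein response (6 genes), targeting and translocation into the endoplasmic reticulum (9 genes), signal peptide cleavage (5 genes), chaperones and co-chaperones (11 genes), disulfide formation (4 genes), COPII traffic (8 genes) and COPI traffic with retrieval (7 genes). Herpud1, a component of degradation at the endoplasmic reticulum, is counted with the chaperone genes throughout.

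The study profiled single epithelial cells of the mouse mammary gland by RNA-seq to describe their heterogeneity and hierarchy. Cells came from the fourth glands of female FVB mice aged 3 to 4 months, either virgin or pregnant at day 12 (12.5 in the protocol), and the labels name no transgene, drug or knockout for any group. Blood and endothelial cells were depleted, and viable cells were sorted by the surface proteins CD24 and CD29 into a basal gate (CD24 intermediate, CD29 high) and a luminal gate (CD24 high, CD29 low) before capture on Fluidigm C1 chips, with CDH5 antibody in the stain, a check of capture sites for doublets by microscope, and SMARTer cDNA made into Nextera XT libraries. Of 239 cells, 34 were virgin basal, 54 virgin luminal, 49 pregnant luminal and the rest pregnant basal. The labels name neither mouse nor chip, which leaves 1 sample a group and nothing to test between groups, and SDs describe cells within a group.

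Secreted and membrane proteins are recognised by the signal recognition particle as they emerge from the ribosome and pass into the endoplasmic reticulum through the Sec61 channel, where the signal peptide is removed and chaperones and disulfide isomerases fold them. COPII vesicles carry folded cargo to the Golgi, and COPI vesicles return escaped residents. When unfolded protein accumulates, IRE1, PERK and ATF6 signal to the nucleus through XBP1, ATF4, CHOP and the cleaved ATF6 itself, a response best known from professional secretory cells such as those that make milk.

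Many promoters of folding genes carry a sequence through which this response is classically read, the ER stress response element (ERSE), and the matches are shown because the values of the genes that hold it are set beside those of the other members further on. RefSeq promoter windows on GRCm38.p6, from 250 bases before to 50 after the start, matched 42 of the 50 genes by symbol. On either strand, the letters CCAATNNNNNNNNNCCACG were found in 7 of these 42 genes (16.7%), against 39 of all 32851 windows (0.119%), and the shorter ERSE-II, whose letters stand in capitals in the Herpud1 run, was found in Dnajb11 and Herpud1 (0.0365% of all windows). Shares of the members are counted per gene and shares of all windows per window, so the units of these shares differ. The motifs were searched separately, and no gene held both. Each run below reads 5′ to 3′ on the strand of the gene, with the motif or its reverse complement in capitals and with fewer flanking bases for Hspa5, whose wider flank overlaps an annotated exon.
Hspa5, chr2:34772020-34772048, plus strand: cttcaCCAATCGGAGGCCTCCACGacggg
Hsp90b1, nearer copy, chr10:86705513-86705571, minus strand: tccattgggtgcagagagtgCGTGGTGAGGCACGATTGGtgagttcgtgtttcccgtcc
Hsp90b1, farther copy, chr10:86705618-86705676, minus strand: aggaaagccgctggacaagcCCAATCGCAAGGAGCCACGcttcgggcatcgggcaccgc
Calr, chr8:84847055-84847113, minus strand: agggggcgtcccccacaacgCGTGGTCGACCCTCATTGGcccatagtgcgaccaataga
Canx, chr11:50325780-50325838, minus strand: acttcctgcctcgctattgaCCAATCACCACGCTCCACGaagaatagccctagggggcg
Dnajc3, chr14:118937807-118937865, plus strand: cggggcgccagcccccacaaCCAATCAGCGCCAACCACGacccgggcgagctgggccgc
Creld2, chr15:88819500-88819558, plus strand: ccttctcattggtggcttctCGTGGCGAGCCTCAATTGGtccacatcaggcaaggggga
Pdia6, chr12:17266471-17266529, plus strand: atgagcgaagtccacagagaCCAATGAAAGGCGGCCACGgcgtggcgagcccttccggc
Herpud1 (ERSE-II), chr8:94386357-94386407, plus strand: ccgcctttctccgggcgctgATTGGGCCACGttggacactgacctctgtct

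By step, an ERSE or ERSE-II was present in 8 of 10 chaperone genes with a window and in 1 of 4 disulfide genes, and in 0 of 5 sensor and factor genes, 0 of 7 targeting genes, 0 of 3 cleavage genes, 0 of 8 COPII genes and 0 of 5 COPI genes. The UPR element TGACGTGG was found in Sec23a, Sec24d and Copb1 (0.676% of all windows) and the ATF4 response element TGATGCAA in Herpud1 (0.895% of all windows). These matches are letters in a window and were not tested as binding sites.

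Depth, read from the steps between low values and given in units of 1000000 fragments, had group medians of 6.18 to 9.11 and ranged over cells from 1.15 to 39.9. Genes at 1 FPKM or more per cell had a median of 1825 for virgin and 2734.5 for pregnant basal cells, and of 3773 for virgin and 3653 for pregnant luminal cells, so virgin basal cells were the poorest in detected genes. Of 10 basal marker genes 8 had a median of at least 1 FPKM in virgin cells of that gate and 9 in pregnant ones, and of 10 luminal marker genes 9 did in both luminal groups. The mean log2 level of the basal markers exceeded that of the luminal markers in 4 of 49 pregnant and 0 of 54 virgin luminal cells, and the reverse held in 0 basal cells. At least 2 of 10 endothelial markers reached 1 FPKM in 7 virgin and 4 pregnant cells of the basal gate, and in 0 virgin and 1 pregnant of the luminal gate. Without these cells the median difference of the 50 genes was -1.95 between virgin gates and 0.73 between basal stages, against -1.96 and 0.82 with them.

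Levels are FPKM, a per-length scale, and a difference between groups compares the group means of log2(FPKM + 1) over cells, called when it reaches 1 either way. As background, the same call was made over 7926 genes, those that reached 1 FPKM in 10% or more of all cells. Of the 50 genes 48 passed that filter, and Ern1 and Eif2ak3 did not. The filter favours genes that are common in the larger groups, so counts over all 50 genes are given.

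In the luminal gate the greatest upward differences with pregnancy were in Xbp1 and in some subunits of signal peptidase, the COPII coat and the translocon-associated complex. The greatest downward differences, in Herpud1 and Pdia4, were larger in size than those of the translocon-associated complex. Of 11 chaperone genes 1 was past the size called upward and 1 downward. Pregnant luminal cells exceeded virgin ones by 1 or more in 6 of the 50 genes (background 6.16%, and 9.34% over 1905 commoner genes, those in 50% or more of all cells) and were below them by 1 or more in 2 (background 6.01% and 8.66%). The 6 were Xbp1 (2.82), Sec11c (1.95), Sec13 (1.60), Ssr4 (1.15), Manf (1.09) and Ssr2 (1.02), and the 2 lower genes were Herpud1 (-1.33) and Pdia4 (-1.29). The median difference of the 50 genes was 0.34, against -0.0049 over all 7926 genes, and 33 of the 50 lay above 0. With each cell rescaled to a sum of 1000000, the median over all genes shifted to -0.21 and that of the 50 genes to 0.07. In that scaling 26 of the 50 lay above 0, 5 were higher and 5 lower by at least 1, and the background was 6.70% higher and 14.6% lower. The rescaled difference was 2.75 for Xbp1, 1.995 for Sec11c and 1.62 for Sec13, while Manf (0.95), Ssr4 (0.85) and Ssr2 (0.64) were under 1 and Dnajb9 (1.22) and Eif2ak3 (1.16) passed it. The 5 lower genes were Herpud1 (-1.93), Pdia4 (-1.84), Dnajc3 (-1.49), Atf6 (-1.46) and Canx (-1.09). Without the 4 pregnant luminal cells whose markers went against their gate, 8 genes were higher (background 7.33%) and 2 lower (background 5.90%) by at least 1. Xbp1 was then at 3.16, Sec11c at 2.09, Herpud1 at -1.17 and Pdia4 at -1.10.

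**Figure D1:**
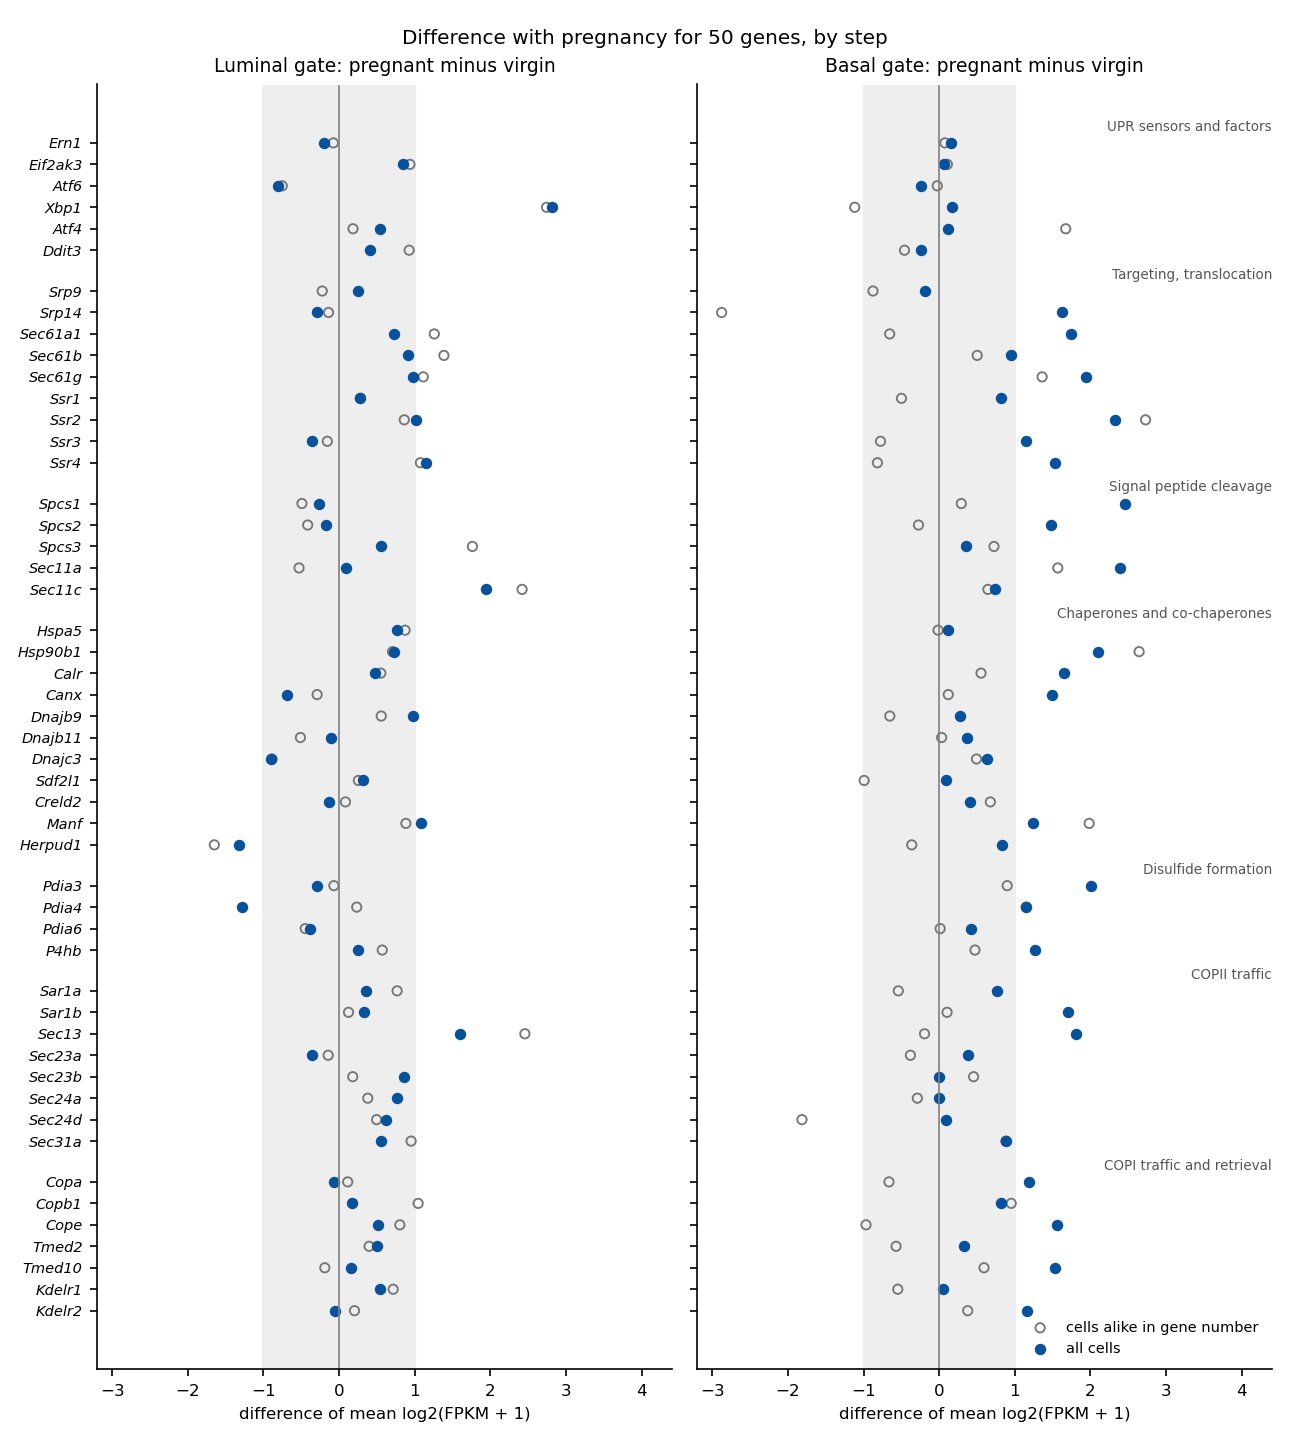
Difference of mean log2(FPKM + 1) between pregnant and virgin cells (x axis, log2 units) for the 50 genes ordered by step (y axis), in the luminal gate at left and the basal gate at right. Filled points use all cells and open points the cells from the 25th to the 75th percentile of gene number. The grey band marks differences smaller than 1. Xbp1 stands at 2.82 in the luminal gate and 0.17 in the basal gate.

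Among the sensors and factors, Xbp1, the transcription factor made active by IRE1 splicing, had the greatest difference. The values are per gene and do not separate spliced from unspliced Xbp1 mRNA. Xbp1 (GRCm38 chromosome 11, 5520659 to 5525893) ran from 0 through a median of 9.90 to 239 FPKM in virgin luminal cells and from 0 through 107 to 589.9 FPKM in pregnant luminal cells. In the basal gate it ran from 0 through 0 to 106 FPKM in virgin cells and from 0 through 0.0445 to 154 FPKM in pregnant cells. The median pregnant luminal cell thus lay just above the highest virgin basal cell, while the ranges of the 4 groups overlapped at the low end. Xbp1 reached 10 FPKM in 41 of 49 pregnant luminal, 27 of 54 virgin luminal, 8 of 34 virgin basal and 23.5% of pregnant basal cells. The mean log2 level was 3.32 ± 2.49 (SD over 54 cells) before and 6.14 ± 2.41 (SD over 49 cells) during pregnancy in the luminal gate, and the difference ranked 42 from the highest among the 7926 genes. In the basal gate pregnant and virgin cells differed by 0.17, and within pregnancy basal cells were lower than luminal cells by 4.51 on the log2 scale, which ranked 7882 of 7926.

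Of the 3 sensors, Ern1 and Eif2ak3 were scarce. Ern1, which encodes IRE1 alpha, reached 1 FPKM in 9 of 54 virgin luminal cells (16.7%, exact Clopper-Pearson 95% interval 7.92 to 29.3%). It did so in 6 of 49 pregnant luminal, 4.90% of pregnant basal and 0 of 34 virgin basal cells. For that 0 the exact upper limit was 10.3%, and 3 divided by the number of cells gave 8.82%. The epithelial paralogue of Ern1, Ern2, reached 1 FPKM in 0 of 239 cells. Such intervals cover the counting of cells only, and a cell without a value may still hold the mRNA. Eif2ak3, which encodes PERK, reached 1 FPKM in 14 of 49 pregnant luminal cells (28.6%, interval 16.6 to 43.3%), 4 of 54 virgin luminal (7.41%, 2.06 to 17.9%), 1.96% of pregnant basal and 0 of 34 virgin basal cells. Its mean log2 level differed by 0.85 between the luminal groups and by 1.16 after rescaling. Atf6 went the other way, with 37 of 54 virgin luminal cells (68.5%, 54.4 to 80.5%) and 16 of 49 pregnant luminal cells (32.7%, 19.9 to 47.5%) at 1 FPKM or more and a difference of -0.80.

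Of the effectors of the PERK branch, Atf4 was near one level in the 4 groups and Ddit3 was rarer in basal cells. Atf4, whose translation PERK promotes, ran from 0 through 76.2 to 678 FPKM in virgin luminal and from 0 through 88.9 to 656 FPKM in pregnant luminal cells, and its medians in basal cells were 76.01 (virgin) and 85.4 FPKM (pregnant). Its mean log2 level lay between 5.51 and 6.07 in the 4 groups, a spread smaller than its SD of 2.04 to 3.21 within a group. Ddit3, which encodes the pro-apoptotic factor CHOP, had a median of 0 in each group and reached 1 FPKM in 19 of 54 virgin luminal and 18 of 49 pregnant luminal cells, against 6 of 34 virgin basal and 13.7% of pregnant basal cells, with single cells up to 1989 FPKM in the pregnant basal group. Its mean log2 level differed between basal and luminal cells by -0.99 in virgin and by -1.64 in pregnant mice, the latter past the size called.

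**Figure D2:**
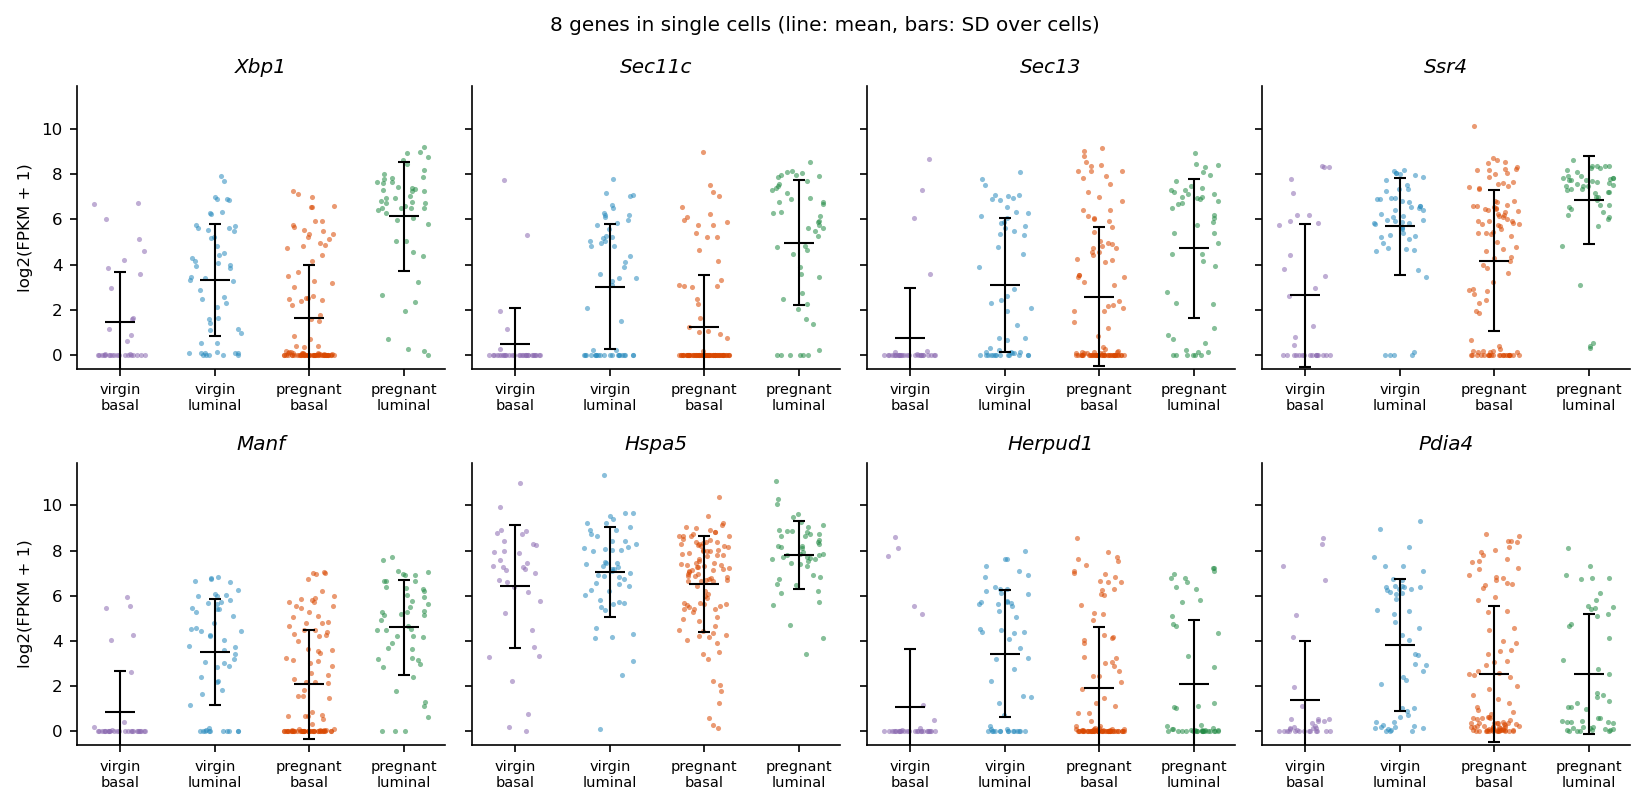
Level of 8 genes, as log2(FPKM + 1) on the y axis, in each of 239 cells of the 4 groups (x axis), with the group mean as a line and the SD over cells as bars, cut at the foot of the axis where they run lower. Mean Xbp1 was 3.32 in virgin and 6.14 in pregnant cells of the luminal gate, the means of Hspa5 lay between 6.42 and 7.81 in the 4 groups, and over all cells Herpud1 and Pdia4 were lower in pregnant than in virgin luminal cells.

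At targeting and translocation, 2 of 9 genes were past 1 upward and 0 downward with pregnancy in the luminal gate, and the median of the 9 differences was 0.72. Ssr4, the delta subunit of the translocon-associated complex, ran from 0 through 65.2 to 294 FPKM in virgin and from 0.226 through 177 to 399 FPKM in pregnant luminal cells. Ssr2, the beta subunit, ran from 0 through 101.5 to 410.1 FPKM in virgin and from 0 through 158 to 656 FPKM in pregnant luminal cells. The differences of Ssr4 (1.15) and Ssr2 (1.02) were smaller than their SDs of 1.94 to 2.29 within the luminal groups. Of the other subunits, Ssr1 was at 0.27 (-0.10 after rescaling) and Ssr3 at -0.35. Exons of 17 of the 50 genes overlap those of another annotated gene, in 7 cases a gene of the table, and the sources used here do not say whether counting used strand. The 3 channel subunits Sec61g (0.97), Sec61b (0.91) and Sec61a1 (0.72) lay under the size called, and after rescaling they were at 0.66, 0.53 and 0.45. Sec61b ran from 0 through 89.3 to 434 FPKM in virgin luminal and from 0 through 179 to 548 FPKM in pregnant luminal cells. The signal recognition particle genes Srp9 (0.25) and Srp14 (-0.30) were close to 0.

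Signal peptide cleavage had 1 of 5 genes higher by at least 1. Signal peptidase works with either of the catalytic subunits SEC11A and SEC11C, and the difference was on the Sec11c side. Sec11c ran from 0 through 9.68 to 218 FPKM in virgin luminal cells and from 0 through 52.8 to 374 FPKM in pregnant luminal cells, and it reached 1 FPKM in 32 of 54 (59.3%, 45.03 to 72.4%) and 42 of 49 cells (85.7%, 72.8 to 94.1%). Its difference of 1.95 was smaller than its SD over cells, 2.77 in either luminal group. Sec11a ran from 0 through 117.6 to 663.9 FPKM and from 0 through 101.5 to 349.9 FPKM, a difference of 0.09 that was -0.25 after rescaling. Mean Sec11c was 31.03 FPKM against 144 FPKM of Sec11a in virgin luminal cells and 91.5 against 129.9 FPKM in pregnant luminal cells. The accessory subunits Spcs1 (-0.26), Spcs2 (-0.18) and Spcs3 (0.55) differed by less than 1.

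Of the 11 genes grouped in the chaperone and co-chaperone step 1 was higher (Manf, 0.95 after rescaling) and 1 lower (Herpud1) by at least 1 in pregnant luminal cells. Hspa5, Hsp90b1, Calr and Canx were abundant in the luminal gate, with medians of 82.2 to 247 FPKM in virgin and 120.2 to 229 FPKM in pregnant cells, while Dnajb9, Sdf2l1 and Creld2 had medians of 0 to 1.59 FPKM there. Hspa5, which encodes BiP, the main chaperone of the lumen, ran from 0.0772 through 148 to 2577 FPKM in virgin luminal and from 9.62 through 229 to 2144 FPKM in pregnant luminal cells. Its mean log2 level was 7.05 ± 2.00 and 7.81 ± 1.49, a difference of 0.76 that was 0.40 after rescaling and smaller than either SD. Hsp90b1, the GRP94 chaperone, differed by 0.72 and the lectin chaperone gene Calr by 0.47, whereas the membrane-bound lectin chaperone gene Canx was lower by 0.69 in the log2 mean, with medians of 247 FPKM in virgin and 142 FPKM in pregnant luminal cells. Canx was thus the most abundant of the 50 genes in the median virgin luminal cell, and Hspa5 in the median pregnant luminal cell.

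The co-chaperones of BiP split. Dnajb9 reached 1 FPKM in 10 of 54 virgin luminal and 22 of 49 pregnant luminal cells (difference 0.97), while Dnajc3, which also restrains PERK, did so in 37 of 54 and 25 of 49 cells (difference -0.90). Dnajb11 was at -0.11, Creld2 at -0.14 and Sdf2l1 at 0.32. Manf, a secreted stress-responsive factor that binds BiP, ran from 0 through 14.1 to 113 FPKM in virgin and from 0 through 34.3 to 212 FPKM in pregnant luminal cells. Herpud1, a membrane component of ER-associated degradation, ran from 0 through 17.6 to 249.7 FPKM in virgin and from 0 through 0.0779 to 151 FPKM in pregnant luminal cells, and was at 1 FPKM or more in 36 of 54 (66.7%, 52.5 to 78.9%) and 21 of 49 cells (42.9%, 28.8 to 57.8%). Most pregnant luminal cells therefore lacked a Herpud1 value of 1 FPKM, and most virgin luminal cells had one.

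Set beside the promoter matches, the 9 genes with an ERSE or ERSE-II differed by -1.33 to 0.76 between pregnant and virgin luminal cells, with a median of -0.14. Of these 9, 0 were higher by at least 1 (background 6.16%, and 9.34% over genes found in at least 50% of all cells). The 33 genes with a window and neither motif differed by -1.29 to 2.82, with a median of 0.33, and 3 were higher by at least 1. Between pregnant and virgin basal cells the same 9 genes differed by 0.12 to 2.10, with a median of 0.63, and 3 were higher by at least 1 (Hsp90b1, Calr and Canx), against -0.24 to 2.45, a median of 0.88 and 15 of the 33. The background of that basal call was 15.6%, and 42.3% over genes found in at least 50% of all cells. Genes with and without the motifs were not tested against each other. In Herpud1 an ERSE-II and an ATF4 response element lay in the same window, from 52 to 42 and from 112 to 105 bases before the start. The 8 genes without a window included 3 of the 6 that were higher (Sec11c, Manf and Ssr2).

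Disulfide formation had 0 of 4 genes higher and 1 lower by at least 1. Pdia4 ran from 0 through 16.8 to 632 FPKM in virgin luminal and from 0 through 1.38 to 277 FPKM in pregnant luminal cells, and was at 10 FPKM or more in 28 of 54 and 17 of 49 cells. The abundant isomerases Pdia3 (-0.29), Pdia6 (-0.38) and P4hb (0.25, or -0.05 after rescaling) differed by less than their SDs of 1.95 to 2.46. In the cells alike in gene number, defined further on, Pdia4 differed by 0.23, so its sign depended on which cells were compared.

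COPII traffic had 7 of 8 genes above 0 in pregnant luminal cells, 1 of them by at least 1. Sec13, a scaffold of the outer coat that is also part of the nuclear pore, ran from 0 through 4.21 to 271 FPKM in virgin and from 0 through 57.5 to 483 FPKM in pregnant luminal cells. Its partner in the outer coat, Sec31a, differed by 0.56, with medians of 10.05 and 19.4 FPKM. Of the cargo adaptors and inner coat, Sec23b was at 0.86, Sec24a at 0.76, Sec24d at 0.62 and Sec23a at -0.36, and the GTPase genes Sar1a and Sar1b were at 0.35 and 0.33 (-0.02 and 0.05 after rescaling). Sec24a and Sar1b lie head to head on chromosome 11, where Sec24a ends at 51763634 on the minus strand and Sar1b begins at 51763687 on the plus strand, 52 bases apart. Between pregnant and virgin basal cells Sec24a differed by -0.0045 and Sar1b by 1.71. In the cells alike in gene number, with 6 virgin basal cells, Sec24a was at -0.29 and Sar1b at 0.10.

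COPI traffic and retrieval had 0 of 7 genes past 1 in either direction. The coat genes Copa (-0.07), Copb1 (0.17) and Cope (0.51), the cargo receptor genes Tmed2 (0.51) and Tmed10 (0.15) and the KDEL receptor genes Kdelr1 (0.53) and Kdelr2 (-0.06) had a median difference of 0.17. Kdelr2, which returns escaped chaperones to the endoplasmic reticulum and reached 1 FPKM in 85.3% or more of each group, ran from 4.14 through 141 to 422 FPKM in virgin luminal, 0.445 through 124 to 656 FPKM in pregnant luminal, 0 through 116 to 706 FPKM in virgin basal and 0 through 175 to 515 FPKM in pregnant basal cells.

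**Figure D3:**
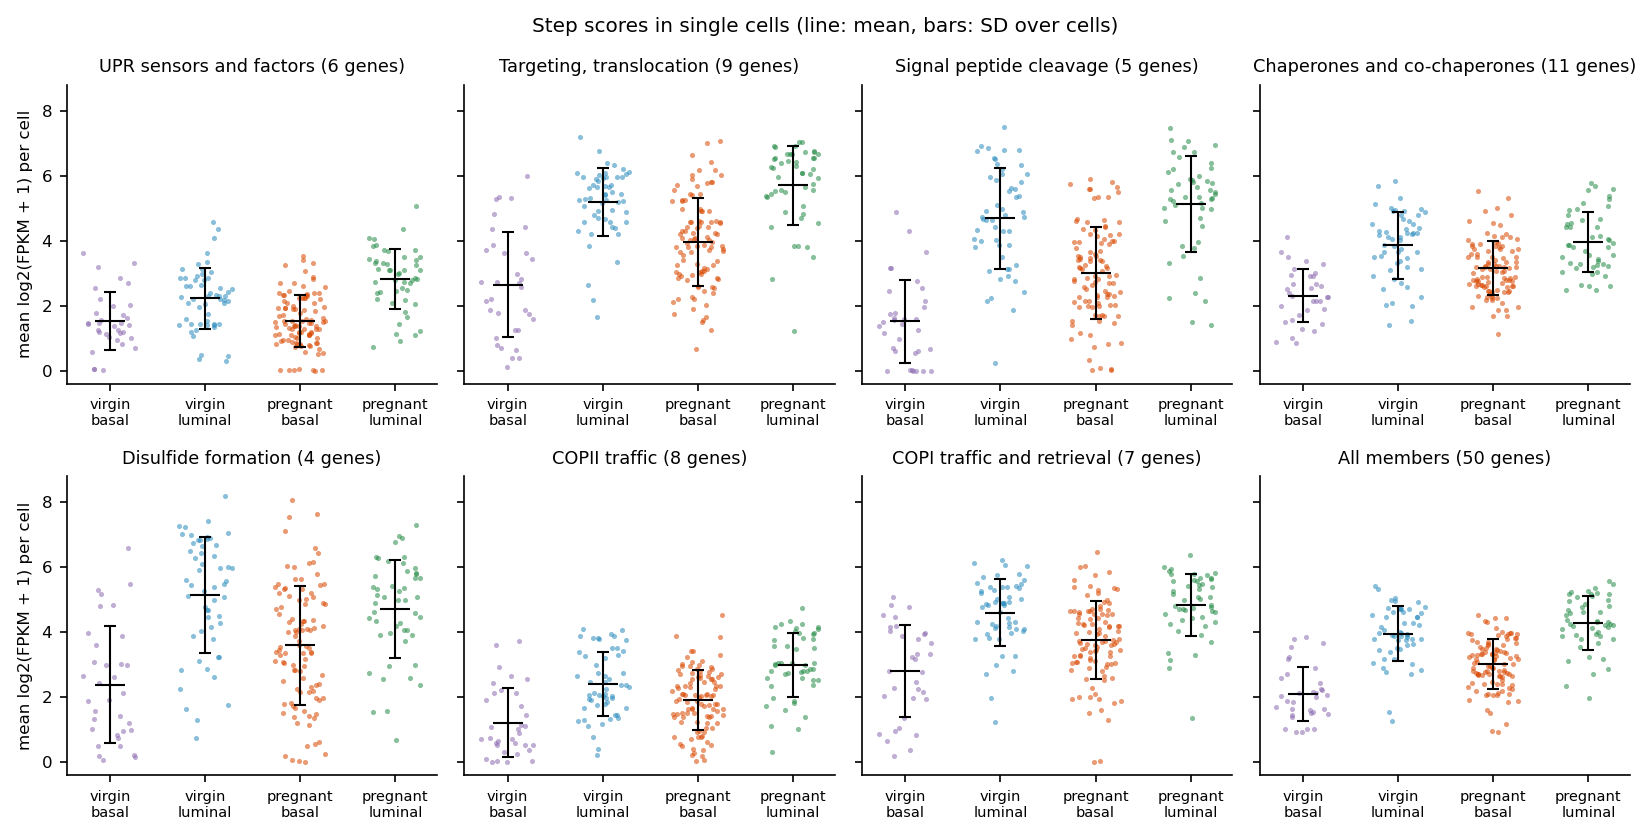
Step score per cell, the mean log2(FPKM + 1) over the genes of a step (y axis), in each of 239 cells by group (x axis), with the mean as a line and the SD over cells as bars. The score of the sensors and factors averaged 2.22 in virgin luminal and 2.82 in pregnant luminal cells, and that of disulfide formation 5.14 and 4.71.

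As scores per cell, the steps differed by unequal amounts in the luminal gate. The sensor and factor score averaged 2.22 ± 0.94 in virgin luminal and 2.82 ± 0.93 in pregnant luminal cells, the COPII score 2.40 ± 0.99 and 2.99 ± 0.98, and the targeting score 5.18 ± 1.06 and 5.70 ± 1.22. Of the 6 sensor and factor genes 4 differed upward, with Xbp1 (2.82) far ahead of the median of 0.48. Ern1 (-0.20) and Atf6 (-0.80) differed downward. The chaperone score averaged 3.85 ± 1.04 and 3.95 ± 0.93, and the disulfide score 5.14 ± 1.79 and 4.71 ± 1.504, the 1 of 7 step scores below its virgin level over all cells as deposited. Its difference was -0.43 there, -0.87 after rescaling and 0.07 in the cells alike in gene number, so its direction turned with the cells compared. After rescaling the chaperone score (-0.20) and the COPI score (-0.07) also lay below 0. Each of these score differences was smaller than the SD over cells, and the cells of both groups overlapped over nearly the whole range.

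As a share of a cell's summed FPKM, the 50 genes held a median of 1.14% in virgin luminal (0.458 to 2.88%) and 0.948% in pregnant luminal cells (0.561 to 1.82%), and 0.829% before and 0.986% during pregnancy in the basal gate. The 8 milk protein genes held a median of 0.829% in virgin luminal and 17.5% in pregnant luminal cells. With these 8 genes left out of the total, the shares of the 50 genes were 1.21% and 1.16%. The number of the 50 genes at 1 FPKM or more had a median of 37 in both luminal groups. Outside the milk genes, the medians of the 2 luminal groups thus lay within 1 SD over cells (0.428 in virgin and 0.325 in pregnant luminal cells) of each other.

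Among single pregnant luminal cells, Xbp1 varied with the milk protein mRNA Csn2 (beta-casein). Across the 49 cells Spearman's rho was 0.55, and 0.65 after a straight line on the number of genes per cell was removed. Without the 4 cells whose markers went against their gate, a set left out after seeing the data, rho was 0.47 over 45 cells. Across 54 virgin luminal cells it was 0.25. In pregnant luminal cells Csn2 had a rho of 0.51 with Sec61g, 0.48 with Spcs1, 0.48 with Ssr4 and 0.40 with Sec11c. These 4 genes are a selection, and the other members apart from Xbp1 are not listed. Their rho is not given with gene number removed or without the 4 cells against their gate. Whether Csn2 varied more with secretory genes than with genes at large was not tested. Cells share the scale of their library and its depth, and values at 0 fill the low end. The values of rho are therefore descriptions without a p-value. Most pregnant luminal cells lay at high Csn2, with a smaller number spread below them, and no rho was computed within either.

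**Figure D4:**
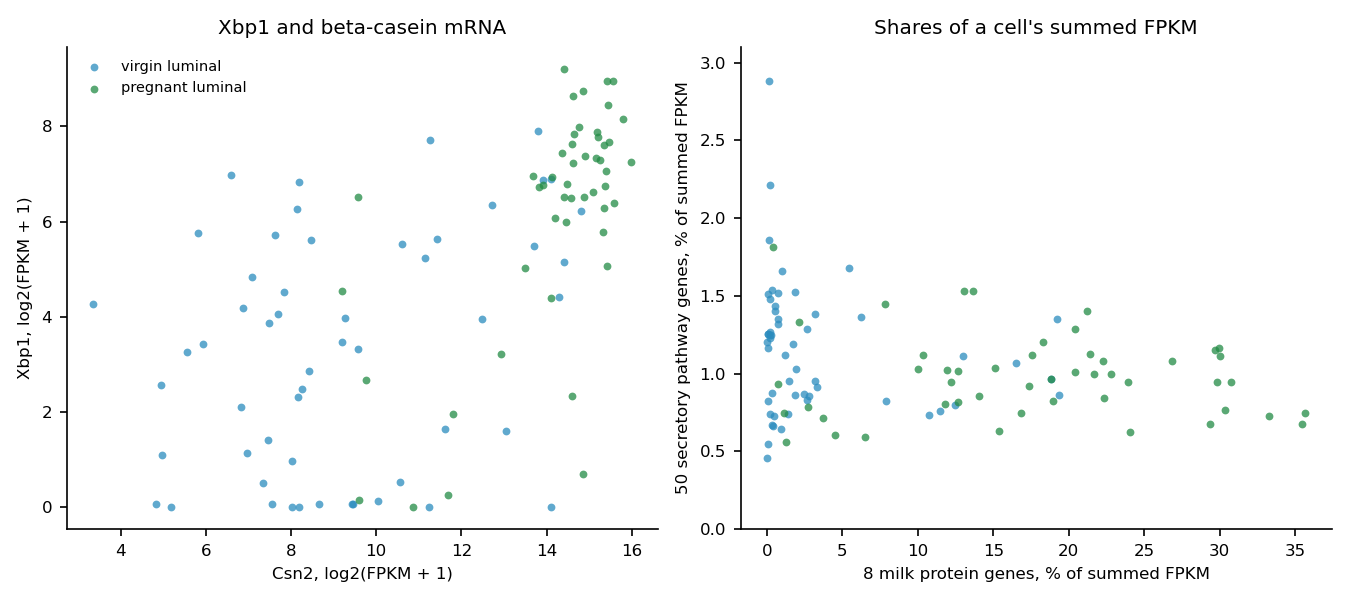
Left, Xbp1 against Csn2, both as log2(FPKM + 1), in 54 virgin and 49 pregnant luminal cells. Right, the share of a cell's summed FPKM held by the 50 genes (y axis, %) against that held by 8 milk protein genes (x axis, %). Pregnant luminal cells reach a milk share of 35.7%, while the share of the 50 genes stays between 0.458 and 2.88% in both groups.

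Esr1, the oestrogen receptor gene that marks hormone-sensing luminal cells, reached 1 FPKM in 33 of the 54 cells of the virgin luminal gate, against 0 of 49 in pregnancy. For that 0 the exact upper limit was 7.25%, and 3 divided by the number of cells gave 6.12%. The 21 virgin luminal cells under 1 FPKM of Esr1 had a median Xbp1 of 15.6 FPKM and the other 33 a median of 6.26 FPKM. Against the 21 cells alone, 8 of the 50 genes were higher in pregnant luminal cells by at least 1 (background 7.94%) and 1 was lower (background 3.65%). Xbp1 (2.26), Sec13 (1.77), Sec11c (1.65), Sec61b (1.53), Sec31a (1.23), Hsp90b1 (1.075), Copb1 (1.06) and Sec24a (1.02) were higher and Pdia4 was lower (-1.01). Against the 33 cells with Esr1, 8 were higher (background 7.41%) and 4 lower (background 10.5%), and Herpud1 was at -1.66 there and at -0.80 against the 21. Within virgin luminal cells 5 genes were higher in cells with Esr1 (background 12.8%), namely Srp14 (1.81), Copb1 (1.46), Spcs2 (1.41), Sec31a (1.09) and Sec61b (1.01), and Ssr1 was lower (-1.29, background 4.35%).

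Between gates, most of the 50 genes were lower in basal than in luminal cells at both stages. In virgin mice 0 genes were higher in basal cells by at least 1 (background 3.02%) and 36 were lower (background 34.4%), with a median of -1.96 against -0.65 over all genes. In pregnant mice 0 were higher (background 6.86%) and 29 lower (background 21.1%), with a median of -1.26 against -0.36. Of these 50 genes 33 were found in at least 50% of all cells, and over all 1905 genes as common as that the share lower in basal cells was 57.1% (higher 5.67%) in virgin mice and 32.9% (higher 11.7%) in pregnant mice. In virgin basal cells the greatest shortfalls were Spcs2 (-4.04), Sec11a (-4.02), Ssr2 (-3.89) and Srp14 (-3.415), and in pregnant basal cells Xbp1 (-4.51), Sec11c (-3.75), Sec61b (-2.80) and Ssr4 (-2.68).

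Some members followed the gate at 1 stage or not at all. Canx had medians of 243 FPKM in pregnant basal and 142 FPKM in pregnant luminal cells (difference 0.52), and Kdelr2 of 175 and 124 FPKM (difference 0.34), whereas between the virgin gates Canx differed by -1.67 and Kdelr2 by -0.88. Hspa5 was detected in 31 of 34 virgin basal and 97.1% of pregnant basal cells with medians of 149.7 and 133 FPKM, against 148 FPKM in virgin luminal and 229 FPKM in pregnant luminal cells, and its difference between gates was -0.63 in virgin and -1.27 in pregnant mice. Atf4 differed by -0.02 between the virgin gates, or by -1.28 in the cells alike in gene number, with 6 virgin basal cells. The COPII adaptors Sec24a (0.43) and Sec24d (0.46) and the co-chaperone Dnajb9 (0.40) were the 3 genes above 0 in virgin basal cells.

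With pregnancy, 22 of the 50 genes were higher in basal cells by at least 1 (background 15.6%, and 42.3% over genes found in at least 50% of all cells) and 0 were lower (background 0.543% and 0.840%). They were spread over 6 steps, with 6 of 9 targeting genes, 3 of 5 cleavage genes, 4 of 11 chaperone genes, 3 of 4 disulfide genes, 2 of 8 COPII genes and 4 of 7 COPI genes, and 0 of 6 sensors and factors. Spcs1 (2.45), Sec11a (2.39), Ssr2 (2.325), Hsp90b1 (2.10) and Pdia3 (2.01) led. Spcs1 ran from 0 through 9.34 to 365 FPKM in virgin and from 0 through 103 to 659.5 FPKM in pregnant basal cells. Virgin basal cells also had the fewest detected genes, and the median of all 7926 genes was higher in pregnant basal cells by 0.29.

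Cells in the middle range of gene number, from its 25th to its 75th percentile, were few in the virgin basal group, with 6 virgin and 64 pregnant cells of the basal gate and 23 virgin and 26 pregnant of the luminal gate. Their median gene numbers were 2565.5 and 2877.5 in the basal and 3369 and 3383.5 in the luminal gate, and median depth in the same units was 23.3 in the 6 virgin basal cells against 8.31 to 9.35 in the other groups. In the luminal gate 9 of 50 genes were then higher in pregnancy (background 7.39%) and 1 was lower (background 8.10%). Xbp1 (2.74), Sec13 (2.46) and Sec11c (2.42) again led, followed by Spcs3 (1.76), Sec61b (1.39), Sec61a1 (1.26), Sec61g (1.11), Ssr4 (1.075) and Copb1 (1.04), and Herpud1 was lower (-1.65). In the basal gate 7 genes were higher (background 14.03%) and 3 lower (background 8.88%) in pregnancy, with a median of 0.05, against 22 and 0 over all cells. Of the 22, Ssr2 (2.73), Hsp90b1 (2.64), Manf (1.98), Sec11a (1.57), Sec61g (1.36) and Pdia4 (1.15) were past 1 there too, Atf4 joined them (1.67), and Spcs1 was at 0.29 and Pdia3 at 0.90. Srp14 turned from 1.62 to -2.88, Sec24d from 0.09 to -1.82 and Xbp1 from 0.17 to -1.12, over 6 virgin basal cells.

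Between gates the cells alike in gene number gave 4 genes higher (background 10.8%) and 17 lower (background 23.2%) in virgin basal cells, and 0 higher (background 8.53%) and 20 lower (background 15.2%) in pregnant basal cells. Xbp1 was at -4.34 and Sec11c at -3.91 in the pregnant comparison, where 64 and 26 cells were left. In the virgin comparison Xbp1 was at -0.48, Ssr2 at -3.77, Manf at -3.02 and Sec11a at -2.82, over 6 basal cells. Srp14 turned from -3.415 to 1.87 there, and Sec24d was at 2.71, Sar1a at 1.27 and Dnajb9 at 1.26.

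The luminal and the basal difference with pregnancy were set against each other gene by gene. Xbp1 had the greatest luminal excess (2.65 more in the luminal gate), followed by Sec11c (1.21), Sec23b (0.86) and Eif2ak3 (0.78). Spcs1 (-2.72), Pdia4 (-2.44), Pdia3 (-2.30) and Sec11a (-2.30) had the greatest basal excess. In the cells alike in gene number Xbp1 was at 3.86, followed by Srp14 (2.74), Sec13 (2.65) and Sec24d (2.31), while Sec11c was at 1.78, Eif2ak3 at 0.83 and Sec23b at -0.27. Spcs1 was at -0.78, Pdia4 at -0.92, Pdia3 at -0.97 and Sec11a at -2.10 there. The difference of these differences was not tested, for want of replicates.

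**Figure D5:**
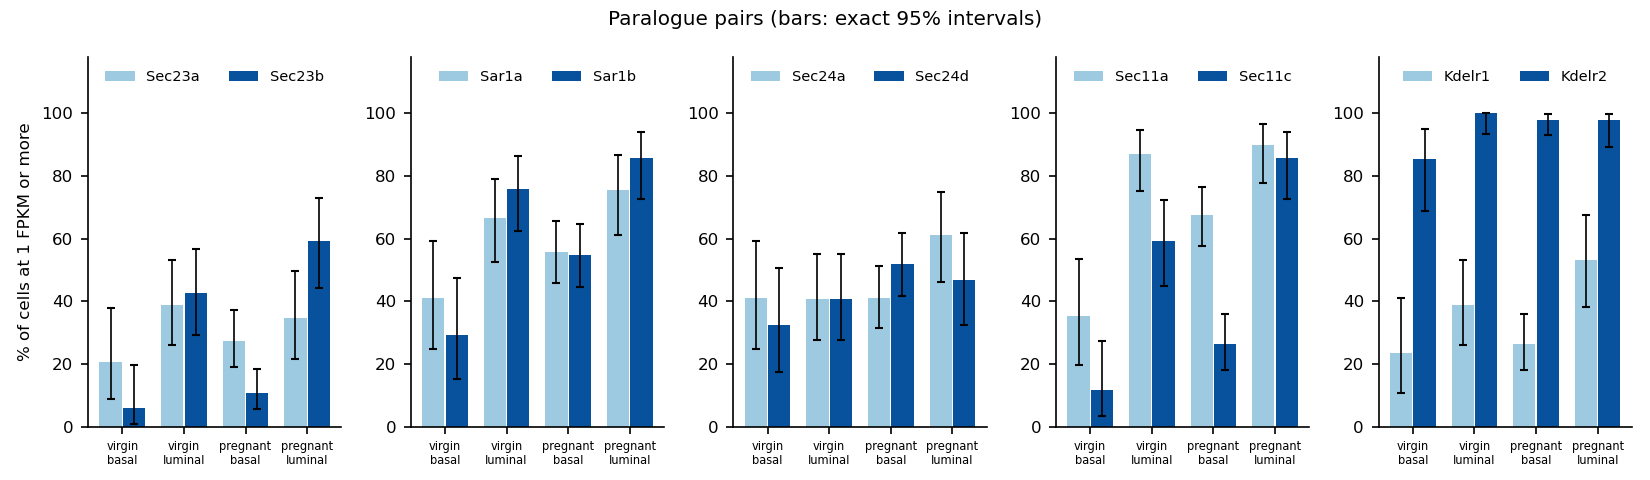
Share of cells at 1 FPKM or more (y axis, %) for 5 pairs of paralogues in the 4 groups (x axis), with exact 95% intervals over cells as bars. Sec23b was found in 59.2% of pregnant luminal and 10.8% of pregnant basal cells, and Sec23a in 34.7% and 27.5%.

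Paralogues within a step differed in which cells held them. Sec23b, the inner coat subunit linked to a human anaemia of the erythroid lineage, averaged 24.8 FPKM in pregnant luminal and 4.14 FPKM in pregnant basal cells, where Sec23a averaged 3.54 and 7.46 FPKM. In pregnant luminal cells 21 cells held Sec23b without Sec23a at 1 FPKM or more and 9 held Sec23a without Sec23b, and in pregnant basal cells the numbers were 7 and 24. Sec11c was likewise rare outside luminal cells, at 26.5% of pregnant basal (18.2 to 36.1%) and 11.8% of virgin basal cells (3.30 to 27.5%), while Sec11a was at 67.6% (57.7 to 76.6%) and 35.3% (19.7 to 53.5%). Kdelr2 exceeded Kdelr1 in each group, with means of 149.9 to 193 FPKM against 5.66 to 13.6 FPKM. Sar1b exceeded Sar1a by 0.55 to 1.55 in mean log2 level in pregnant basal and both luminal groups, but not in virgin basal cells (-0.39), where its mean FPKM was higher (21.3 against 11.3) and its median was 0 against 0.189 FPKM, and Sec24a and Sec24d did not differ by more than 0.20 in mean log2 level in any group.

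Another 111 genes of the same pathway were chosen by function with earlier results of these data known. Of these, 11 were past 1 upward and 2 downward with pregnancy in the luminal gate, with a median of 0.12. The background was 6.16% upward and 6.01% downward, and 9.34% and 8.66% over genes found in at least 50% of all cells. These other genes were not rescaled. The oligosaccharyltransferase adds N-glycans to chains leaving the translocon. Of its 11 genes, 8 of which were found in at least 50% of all cells, 4 were higher (background 6.16% and 9.34%) and 0 lower. Ddost was at 1.69, Krtcap2 at 1.36 and Ostc at 1.18. Krtcap2 ran at a median of 94.1 FPKM in virgin luminal and 197 FPKM in pregnant luminal cells. Of 17 other COPII genes 2 were higher, the SNARE genes Sec22b (1.42) and Bet1 (1.39). Of 18 other COPI genes 1 was higher, the cargo receptor gene Tmed9 (1.04), and 1 lower, its relative Tmed3 (-2.21), which had medians of 107 FPKM in virgin luminal and 30.9 FPKM in pregnant luminal cells.

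The other branches of the response were mixed. Of 11 genes of the PERK and ATF4 branch 3 were higher (background 6.16%) and 1 lower (background 6.01%). Among them were the stress-induced factor gene Atf3 (1.47), the C/EBP beta gene Cebpb (1.41) and the chromatin-associated stress gene Nupr1 (-1.41). Atf3 is also an immediate early gene, and its medians were 128 FPKM in virgin luminal, 229.6 FPKM in pregnant luminal, 184 FPKM in pregnant basal and 0.224 FPKM in virgin basal cells. Of 8 genes near ATF6 and IRE1 1 was higher, Creb3l1, which encodes a membrane-bound factor cleaved like ATF6 and reached 1 FPKM in 21 of 49 pregnant luminal and 8 of 54 virgin luminal cells (difference 1.19). In the other 4 lists, 0 of 13 targeting, 0 of 11 chaperone and lectin cycle, 0 of 8 disulfide and 0 of 14 ER-associated degradation genes passed 1 in either direction; their greatest differences were Srp19 (0.90), Ppib (0.73), Ero1l (0.79) and Edem1 (-0.97).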

How the data were processed

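Single cells of 4 groups were analysed from the deposited table of 18850 genes. Reads were handled with Trimmomatic 0.35, TopHat2 2.0.13 and Cufflinks 2.2.1 on mm10 (GRCm38), per the submitters' processing notes, while the sources used here give no roles for these tools, no annotation and no strand setting. The authors' deposited values were taken as FPKM, a unit inferred from these tools and from the values. Depth per cell came from the ratios of low values between cells, scaled with 1027 genes that have 1 transcript. Of 528033 low values 99.9955% lay within 0.05 of a whole multiple of the step that 1 fragment is worth, over 11553 genes. Genes were kept for that share only where most low values already lay near whole multiples, so it is no independent check. No pair of cells had identical values. FPKM without molecular identifiers may count PCR copies, so intervals cover the counting of cells only.

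Differences compare group means of log2(FPKM + 1), taken over cells with a pseudocount of 1, and are called at 1 either way. Background genes reached 1 FPKM in 10% or more of all cells. Cells are not replicates and no mouse or chip is labelled, so no test was run. Shares of cells carry exact Clopper-Pearson 95% intervals. For a count of 0 the limit of 3 divided by the number of cells is also given, which is lower than the exact limit. The scripts were tested on simulated data. All 50 genes could be named, with up to 3 genes from each other pathway list by the size of the luminal difference with pregnancy, and Csn2, Wap, Esr1, Acta2, Krt14, Krt18 and Cdh5. The genes and lists were chosen with earlier results of these data known. Markers against the gate means that the basal marker level of a luminal cell exceeded its luminal one, or the reverse. Coordinates came from GENCODE M21. Alternatives were other pseudocounts, scalings, filters, cell sets and the median over cells. Python 3.11.15, numpy 2.4.6, pandas 2.3.3, scipy 1.17.1 and matplotlib 3.10.9 were used.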

Additional observations from a re-analysis of the deposited data

How the results depend on the processing

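No paired analysis was possible because no label links cells across groups and each group is 1 sample. Of 111 alternative values of counts and medians over the 50 genes, 81 stayed close to the reported one and 30 moved, and the cause was not tested. With a pseudocount of 0.1 the median was -3.31 between virgin gates, -1.98 between pregnant gates and 1.44 between basal stages. In pregnant luminal cells 12 genes were then higher (background 13.97%) and 4 lower (background 14.4%). With a pseudocount of 10, 22 genes were lower between virgin gates (median -0.88, background 9.63%) and 14 between pregnant gates (median -0.57, background 4.90%). Between luminal stages 2 were higher (background 1.39%) and 0 lower (background 1.58%) in that setting, with a median of 0.19. Between basal stages 4 were higher (median 0.35, background 4.01%). Rescaling to a sum of 1000000 gave 5 lower genes (background 14.6%) and a median of 0.069 between luminal stages. Leaving milk genes out of that sum gave 4 lower (background 12.3%). Among cells with at least 2000 genes, 2 genes were higher between virgin gates (median -1.17, background 5.99%) and 5 between basal stages (median 0.36, background 10.7%). From the 25th to the 75th percentile of gene number, 4 were higher (background 10.8%) and 17 lower (background 23.2%) between virgin gates (median -0.47). In the same cells 7 were higher (background 14.03%) and 3 lower (background 8.88%) between basal stages (median 0.054), and 1 was lower between luminal stages (background 8.10%). There Pdia4 reversed, at 0.23 between luminal stages. Medians over cells gave 6 lower genes between luminal stages (background 8.39%), and virgin luminal cells under 1 FPKM of Esr1 gave 1 (background 3.65%). Ern1 and Eif2ak3 were under 1 FPKM in most cells of each group at this depth.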
